A study of Mus musculus with 10 samples.

Results

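Major urinary proteins (MUPs) are small secreted carriers of the lipocalin family, encoded by the Mup genes. The 10 genes described here, Mup1, Mup2, Mup3, Mup7, Mup9, Mup16, Mup17, Mup18, Mup20 and Mup21, were chosen by their measured values in these same counts, chiefly the difference between cachectic and non-cachectic livers, and their rows were found by Ensembl identifier and symbol among the 43629 genes of the count table. That table holds 48 Mup rows in all, of which 21 are protein-coding and 27 are annotated as pseudogenes. The livers came from male mice with Cre-dependent alleles, Lkb1 f/f among them, on an FVB background, given an adenovirus through the nose as adults. The virus carries Cre under the CMV promoter, which is active in many cell types, and Cre recombines these alleles, deleting Lkb1, in the airway cells it reaches, from which lung tumours grow. Every mouse had been given Cre and none was a tumour-free control. Mice that passed the study's limit of weight loss formed the group with cancer anorexia-cachexia syndrome (CACS), and those that did not formed the non-cachectic group (NCACS). Weight changes were -4, -8, -11, -3 and -14% in NCACS mice 11 to 15 and -32, -29, -33, -30 and -29% in CACS mice 16 to 20, with 1 liver per mouse. Further livers of the study were not analysed here.

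MUPs are made mainly by hepatocytes, enter the blood, pass the kidney filter and leave in urine, where they release bound volatile pheromones slowly and act as scent signals themselves. Adult male mice make much more of them than females, because the pulsed growth hormone secretion of males acts through STAT5B on hepatocyte genes of this kind. Testosterone, thyroid hormone and glucocorticoids also raise Mup expression, and fasting and energy deficit are known to lower it. The genes form a tandem array in which a central block of very similar copies is flanked by more divergent ones.

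Total counts per liver ranged from 31459179 to 40746178, and any pair of livers of the same group differed by far more than counting noise. Values below are CPM, counts divided by the library size after TMM scaling and brought to the usual common total, and differences are log2 fold changes of CACS minus NCACS from edgeR's quasi-likelihood fit over 14143 genes. Marker lists of 9 cell types were checked. Summed hepatocyte markers lay between 66117 and 117175 CPM in NCACS livers and between 111153 and 132999 CPM in CACS livers, which fits the labelled tissue, and none of the 9 lists had a marker at 0 counts in every liver. Kupffer cell markers summed to between 196 and 342 CPM in NCACS livers and between 128 and 253 CPM in CACS livers, and 1 of 9, the macrophage gene Cd5l, passed the test (log2 fold change -0.90, adjusted p = 0.037). The lung epithelial list summed to at most 12.2 CPM in any liver, and 1 of its 5 tested genes, the surfactant gene Sftpa1, rose from 1.41 to 3.42 CPM (log2 fold change 1.27, adjusted p = 0.032). Of the hepatocyte list 1 of 10 genes, Hnf4a, rose. Of all tested genes 1.89% were higher and 1.92% lower at the threshold. Lymphocyte markers summed to 3.59 to 7.91 CPM in NCACS and 2.45 to 3.90 CPM in CACS livers, and neutrophil markers to 1.48 to 12.4 and 1.08 to 2.60 CPM. The endothelial (199 to 283 and 260 to 318 CPM), stellate (188 to 296 and 197 to 299 CPM), cholangiocyte (33.6 to 52.8 and 20.3 to 49.7 CPM) and erythroid lists (224 to 456 and 284 to 477 CPM) also overlapped between groups. By sign of the estimate alone, 9 of 9 Kupffer, 4 of 5 lymphocyte, 2 of 2 neutrophil and 4 of 5 cholangiocyte genes tested were lower. Higher were 9 of 10 hepatocyte, 8 of 8 endothelial, 4 of 8 stellate, 2 of 5 lung epithelial and 2 of 4 erythroid genes. Of all 14143 tested genes, 7161 were lower. The part of these cells in the Mup differences was not tested. In such bulk samples fewer cells of a type and less RNA per cell cannot be told apart.

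Each of the 10 genes lies on the minus strand of chromosome 4 (GRCm38), inside an array of 2194 kb that runs from 59956804 to 62150863 and holds 47 of the 48 Mup rows. The first 7 of them along the array, from Mup7 (60066469 to 60070475) through Mup2, Mup9, Mup1, Mup16 and Mup17 to Mup18 (61670177 to 61674136), stand in the central block. The other three are at the distal end: Mup20 at 62050234 to 62054158, Mup3 at 62083476 to 62087342 and Mup21 at 62147932 to 62150863. This split by position is also a split by sequence. Coding regions of the 7 central copies differ from each other at 2 to 8 bases, an identity of 98.5 to 99.6% over all 21 pairs, whereas Mup3, Mup20 and Mup21 share 82.7 to 91.4% with the central copies and 87.6 to 94.95% with each other.

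The stretch below shows why reads of the central copies are hard to assign. It is 150 bases of coding sequence that start at the end of the signal peptide and run from exon 1 into exon 2, read from the GENCODE M21 transcripts. Capitals mark bases that differ from Mup9 at the same position. Mup1 and Mup18 are identical to Mup9 throughout this stretch (chr4:60421348-60421835, minus strand, intron included), as is Mup10, an abundant central copy outside the list, so they are not printed.
Mup9: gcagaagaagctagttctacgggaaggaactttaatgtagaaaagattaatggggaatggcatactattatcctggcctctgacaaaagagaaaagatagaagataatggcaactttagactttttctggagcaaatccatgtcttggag
Mup2: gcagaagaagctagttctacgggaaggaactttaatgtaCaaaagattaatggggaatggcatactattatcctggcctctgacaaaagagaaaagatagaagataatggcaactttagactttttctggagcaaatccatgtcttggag
Mup7: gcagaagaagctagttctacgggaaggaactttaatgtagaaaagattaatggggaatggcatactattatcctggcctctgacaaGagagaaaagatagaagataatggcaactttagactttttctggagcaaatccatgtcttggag
Mup16: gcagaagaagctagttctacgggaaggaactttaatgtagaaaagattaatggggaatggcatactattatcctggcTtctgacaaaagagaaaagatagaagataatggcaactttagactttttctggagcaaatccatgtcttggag
Mup17: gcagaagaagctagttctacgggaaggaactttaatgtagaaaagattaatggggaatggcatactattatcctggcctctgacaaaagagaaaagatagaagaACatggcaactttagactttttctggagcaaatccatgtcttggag
Mup20: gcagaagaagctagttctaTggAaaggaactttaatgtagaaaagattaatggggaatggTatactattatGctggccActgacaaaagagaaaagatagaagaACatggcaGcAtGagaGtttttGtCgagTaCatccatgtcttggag
Mup3: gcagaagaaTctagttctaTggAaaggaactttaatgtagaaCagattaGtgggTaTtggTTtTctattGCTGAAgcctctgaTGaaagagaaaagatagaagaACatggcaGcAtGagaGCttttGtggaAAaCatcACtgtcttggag
Mup21: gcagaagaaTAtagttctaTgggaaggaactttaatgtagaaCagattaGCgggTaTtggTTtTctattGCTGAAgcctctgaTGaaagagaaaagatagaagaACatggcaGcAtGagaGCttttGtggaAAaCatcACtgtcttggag

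In this window Mup2, Mup7 and Mup16 carry 1 difference each and Mup17 carries 2, against 15 in Mup20, 31 in Mup3 and 32 in Mup21. Over whole transcripts, the share of 100-base windows, the length of 1 read, that occur in no other annotated gene was 97.1% for Mup3, 95.5% for Mup21 and 61.2% for Mup20. For the central copies it was 40.6% in Mup17, 19.9% in Mup16, 14.9% in Mup9, 12.9% in both Mup7 and Mup18, 12.8% in Mup1 and 2.66% in Mup2. How the counting treated reads that fit several copies equally well is not given in the sources used here, and the reference genome is C57BL/6J whereas the mice were FVB. Levels of single central copies are for this reason uncertain, and so is any sum that leaves out other central copies such as Mup10.

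Mup3 was the most abundant copy in every liver. Its level was 4566, 5492, 4730, 5491 and 6765 CPM in NCACS mice 11 to 15 and 1923, 4015, 3921, 2872 and 801 CPM in CACS mice 16 to 20. The groups did not overlap, although CACS mouse 17 came within 1.14-fold of NCACS mouse 11. The fitted difference was a log2 fold change of -0.999 ± 0.36 (SE), or 1.999-fold lower in CACS livers.

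Mup21, the closest relative of Mup3 in the array, followed it at a lower level. Its CPM values were 361, 241, 349, 339 and 334 in NCACS mice 11 to 15 and 37.8, 207, 178, 93.0 and 19.9 in CACS mice 16 to 20. No CACS liver reached the lowest NCACS liver, and CACS mice 16 and 20 were lowest for both genes. The log2 fold change was -1.60 ± 0.52 (SE), 3.04-fold lower.

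Mup20 encodes darcin, a male-specific protein of urine that acts as a pheromone in its own right. It was measured at 72.8, 271, 458, 110 and 1376 CPM in NCACS mice 11 to 15 and at 275, 257, 41.1, 277 and 48.6 CPM in CACS mice 16 to 20. The groups overlapped widely: CACS mice 16, 17 and 19 were above NCACS mice 11 and 14, and at or close to mouse 12. Its log2 fold change of -1.35 ± 0.80 (SE) rested on NCACS mouse 15, without which it was -0.34.

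The 7 listed central copies differed far more. Mup18, at 29.9, 24.4, 153, 25.2 and 424 CPM in NCACS mice 11 to 15, had 1.12, 0.367, 1.04, 0.197 and 0.0859 CPM in CACS mice 16 to 20. Those CACS values rest on 45, 14, 32, 7 and 3 counts, so the size of the difference (log2 fold change -7.86 ± 1.11, SE, 232-fold) is imprecise. The lowest NCACS liver was still 21.7-fold above the highest CACS liver.

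Mup17 had 132, 135, 963, 64.7 and 2263 CPM in NCACS mice 11 to 15 and 14.2, 7.69, 18.5, 2.99 and 1.002 CPM in CACS mice 16 to 20, a log2 fold change of -6.33 ± 1.201 (SE). Its levels spanned 35.0-fold among NCACS livers, the widest range of the 10 genes in that group. Mup7 had 90.4, 379, 740, 80.6 and 1642 CPM against 30.0, 5.59, 6.98, 8.96 and 2.15 CPM in the same order of mice, a log2 fold change of -5.77 ± 1.02 (SE). In both genes NCACS mice 13 and 15 were high, mice 11 and 14 low, and the groups stayed apart.

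Mup16 (log2 fold change -5.19 ± 0.92, SE), Mup9 (-4.86 ± 0.81), Mup2 (-4.13 ± 0.68) and Mup1 (-3.70 ± 0.69) completed the block, again without overlap. Mup16 ranged from 25.1 to 505 CPM in NCACS livers and from 1.32 to 7.15 CPM in CACS livers. For Mup9 the ranges were 129 to 1290 CPM and 2.20 to 30.9 CPM. Mup1 ran from 17.9 to 170 CPM and from 1.43 to 8.22 CPM, and Mup2, the scarcest copy, from 2.51 to 17.05 CPM and from 0.0859 to 0.718 CPM, the lower of these resting on 3 counts. NCACS mouse 15 was highest and CACS mouse 20 lowest for each of the 7 central copies.

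**Figure D1:**
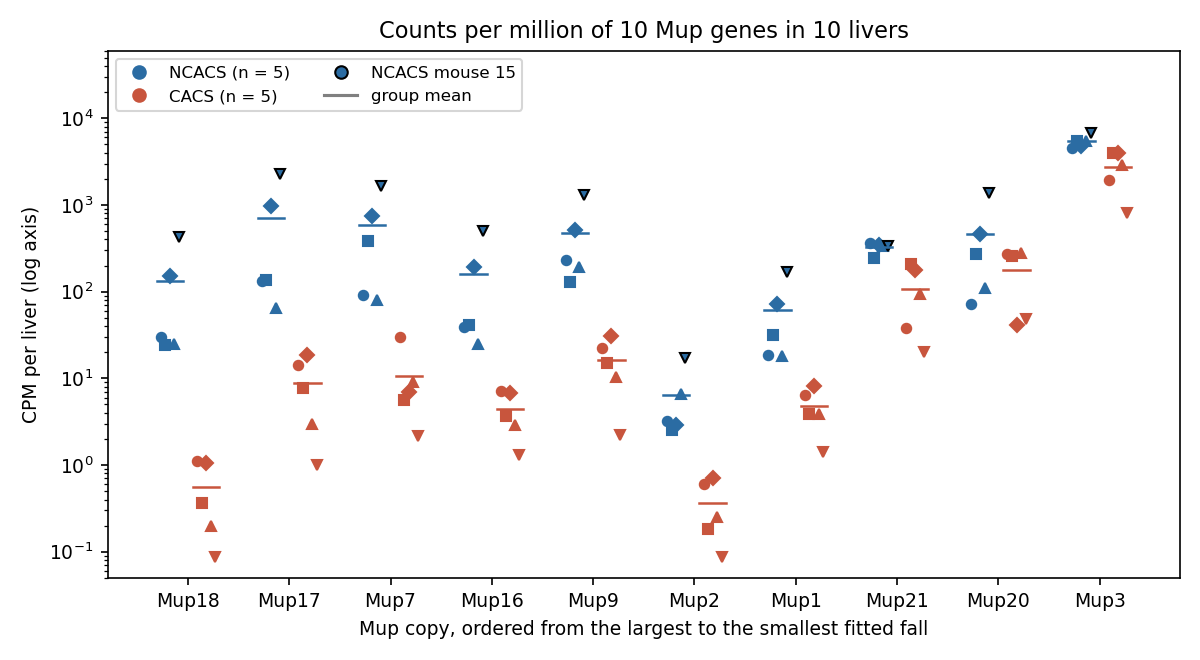
CPM of the 10 Mup genes in 5 NCACS livers (blue) and 5 CACS livers (red), on a log axis, with 1 marker per liver, a line at each group mean and NCACS mouse 15 outlined in black. Mup18 to Mup1, on the left, show wide gaps between the groups, Mup21 and Mup3 narrow ones, and Mup20 overlaps.

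The order of the differences, from Mup18 through Mup17, Mup7, Mup16, Mup9, Mup2 and Mup1 to Mup21, Mup20 and Mup3, was the same without NCACS mouse 15 except that Mup20 and Mup3 changed places. Without that mouse the log2 fold changes of Mup18, Mup17, Mup7, Mup16, Mup9, Mup2 and Mup1 were -6.68, -5.19, -4.90, -4.08, -4.04, -3.37 and -2.87, and those of Mup21 and Mup3 were -1.59 and -0.90. Apart from Mup18 and Mup17, neighbours among the 7 central copies lay within the larger of their 2 standard errors of each other, so their ranks are not resolved, whereas the step from Mup1 at -3.70 to Mup21 at -1.60 was larger than either standard error. Since the genes were listed for this contrast, no p-value is given for them. All except Mup20, 9 of the 10, did not overlap between groups, where 3.13% of all tested genes were higher in every NCACS liver than in every CACS liver. The 7 central copies were past 0.05 in edgeR's adjusted test, where 1.92% of all tested genes were lower at that threshold, and both counts only describe how the genes were chosen. The count was 6 without CACS mouse 16, when Mup17 did not pass, and 5 without CACS mouse 19, when Mup1 and Mup17 did not.

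**Figure D2:**
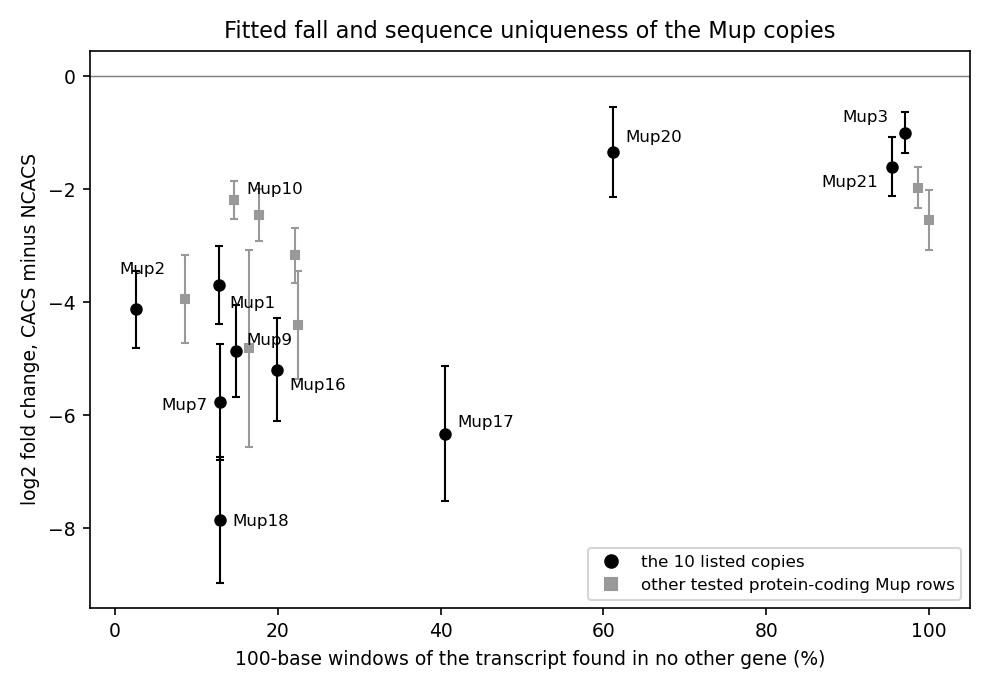
Log2 fold change of CACS minus NCACS (vertical axis, bars are standard errors of the fit) against the percentage of 100-base transcript windows found in no other gene (horizontal axis) for the 10 listed copies (black circles) and the other tested protein-coding Mup rows (grey squares). Mup3, Mup20 and Mup21 lie at upper right with 61.2 to 97.1% and differences of -0.999 to -1.60, while Mup10, at 14.6%, has a difference of only -2.19.

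Sequence distinctness did not order all copies. Mup10, the central copy that matches Mup9 in the printed stretch, was the second most abundant Mup row, at 2540, 2167, 2365, 2859 and 5633 CPM in NCACS mice 11 to 15 and 1058, 586, 868, 495 and 393 CPM in CACS mice 16 to 20. Its log2 fold change was -2.19 ± 0.34 (SE), or -1.86 without NCACS mouse 15, which placed it between Mup1 and Mup21. Only 14.6% of its 100-base windows are its own. Mup5 and Mup6, divergent copies that are hardly expressed in these livers, had log2 fold changes of -1.97 and -2.55 at mean NCACS levels of 1.37 and 1.34 CPM.

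Compared per kilobase of exon, the mean NCACS levels were 5065 CPM per kb for Mup3, 768 for Mup17, 568 for Mup7, 493 for Mup20, 480 for Mup21, 314 for Mup9, 155 for Mup16, 141 for Mup18, 39.2 for Mup1 and 4.84 for Mup2. Of these steps, those from Mup3 to Mup17, Mup9 to Mup16, Mup18 to Mup1 and Mup1 to Mup2 held in all 5 NCACS livers and the others in 1 to 4, so that Mup17, Mup7, Mup20, Mup21 and Mup9 were not in a stable order. In CACS livers the order became Mup3 at 2534 CPM per kb, Mup20 at 194, Mup21 at 158, Mup9 at 10.8, Mup7 at 10.4, Mup17 at 9.56, Mup16 at 4.22, Mup1 at 3.01, Mup18 at 0.606 and Mup2 at 0.276. Mup9, Mup7 and Mup17 could not be separated there, since the standard deviations of their CPM, 11.05, 11.03 and 7.38, were as large as or close to their means of 16.2, 10.7 and 8.86 CPM.

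Added together, the 10 genes gave 5545, 6746, 8172, 6352 and 14786 CPM in NCACS mice 11 to 15 and 2317, 4515, 4212, 3272 and 878 CPM in CACS mice 16 to 20. The groups did not overlap. Group means were 8320 ± 3738 CPM (SD, n = 5) and 3039 ± 1484 CPM (SD, n = 5), a difference of -1.56 on the log2(CPM + 1) scale, or 2.96-fold. As a share of all counts, the 10 genes took 0.826 ± 0.362% in the NCACS group and 0.308 ± 0.156% in the CACS group (SD, n = 5 each). With all 48 Mup rows the shares were 1.22 ± 0.591% and 0.380 ± 0.164%.

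Mup3 dominated this sum, so the sum hid the larger difference. Mup3, Mup20 and Mup21 together gave 5000 to 8475 CPM in NCACS livers (median 5941) and 869 to 4479 CPM in CACS livers (median 3242), 2.35-fold lower on the log2 scale. The 7 central copies gave 545, 742, 2635, 411 and 6312 CPM in NCACS mice 11 to 15 and 81.9, 36.4, 73.2, 29.5 and 8.27 CPM in CACS mice 16 to 20, which was 33.6-fold lower. Without NCACS mouse 15 these differences were 2.16-fold and 22.3-fold. The size of the central difference depended on which copies were summed. With Mup10 added it was 6.59-fold, and over all 14 protein-coding copies from Mup7 to Mup18 it was 7.03-fold, with 3157, 3222, 6104, 3351 and 14430 CPM in NCACS mice 11 to 15 and between 408 and 1230 CPM in CACS livers. That wider sum did not overlap between groups either, and it was 5.37-fold lower without NCACS mouse 15. The 33.6-fold value therefore describes the listed copies and not the central block as a whole.

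The composition of the counts of the 10 genes shifted accordingly. The 7 listed central copies made up between 6.47% (mouse 14) and 42.7% (mouse 15) of these counts in NCACS livers. In CACS mice 16 to 20 they made up 3.54, 0.805, 1.74, 0.902 and 0.943%. The share of Mup3 was 70.8 ± 17.9% in the NCACS group and 88.8 ± 3.85% in the CACS group (SD, n = 5 each). That of Mup20 was 4.39 ± 3.25% and 6.50 ± 4.02%, and that of Mup21 was 4.39 ± 1.63% and 3.11 ± 1.26%. Shares of Mup3, Mup20 and Mup21 overlapped between groups. The share of the 7 listed central copies was higher in every NCACS liver than in every CACS liver. This separation did not hold for the whole central block. Its 14 protein-coding copies gave 1230 of the 3469 CPM of all 48 Mup rows in CACS mouse 16. In NCACS mouse 12 they gave 3222 of 9237 CPM, a smaller share. Mup10 alone took 20.3 to 31.1% of all Mup counts in NCACS livers and 11.4 to 30.7% in CACS livers.

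**Figure D3:**
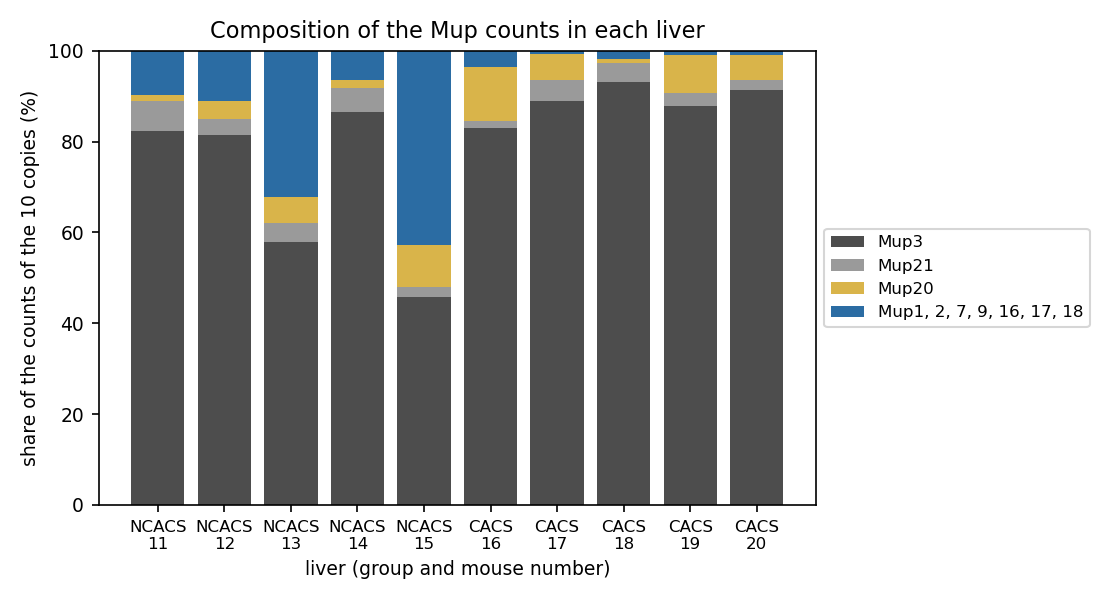
Percentage of the summed counts of the 10 Mup genes (vertical axis) taken by Mup3, Mup21, Mup20 and the 7 central copies in each of 10 livers. The blue segment of these 7 copies reaches 32.2% in NCACS mouse 13 and 42.7% in NCACS mouse 15 and is at most 3.54% in CACS livers.

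Spread between livers also divided the copies. The pooled within-group standard deviation of log2 CPM lay between the 91.8 percentile (Mup3, 0.70) and the 99.8 percentile (Mup17, 1.95) of all tested genes, for which the median was 0.27. Mup3 and Mup21 were tight in NCACS livers, with standard deviations of 0.22 and 0.24 and ranges of 1.48-fold and 1.498-fold, and loose in CACS livers, with 0.96 and 1.45 and ranges of 5.01-fold and 10.4-fold. Central copies were loose in both groups. For Mup17 the standard deviation was 2.18 in NCACS and 1.70 in CACS livers, and for Mup16 it was 1.83 and 0.98.

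After subtraction of group means, log2 levels of pairs of central copies correlated over the 10 livers with Pearson's r between 0.53 and 0.98 (median 0.89 over 21 pairs). Pairs of a central copy with Mup3, Mup20 or Mup21 had r between 0.03 and 0.84 (median 0.49 over 21 pairs). Mup3 and Mup21 had the highest of the 3 remaining pairs, 0.92, and Mup20 with Mup21 had 0.09. Central copies are near-identical, and how reads that fit several of them were counted is not given. The coefficients are therefore only a description. Among 9222 other genes with a mean of at least 5 CPM, those whose within-group pattern was most like the summed 10 genes were Adck5 (r = 0.95), Dhx32 (0.94), Fam114a1 (0.94), Harbi1 (0.94) and Kdm3b (0.92), each over the same 10 livers. All 5 had small ranges, such as 19.7 to 35.9 CPM for Adck5, and log2 fold changes between groups from -0.35 to 0.19 with adjusted p-values from 0.15 to 0.93. Their r values are the highest of 9222 over only 10 livers and were not tested against chance. The most negative r was -0.97.

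Weight change was also compared within each group, while the genes were chosen chiefly for the difference between groups. That choice, like the tests, was made with earlier results of these same counts known. The p-values of the slopes are therefore a description of these genes. In NCACS mice, ordered from the least to the most weight lost (mice 14, 11, 12, 13 and 15), the summed central copies were 411, 545, 742, 2635 and 6312 CPM, so that each mouse that had lost more had a higher level. In CACS mice the highest values, 81.9 and 73.2 CPM, belonged to mice 16 and 18, which had lost most, and the lowest, 8.27 CPM, to mouse 20, which shared the smallest loss with mouse 17. The direction inside the groups was thus opposite to that between them. The slope was -0.38 on the log2 scale per percentage point of weight change (two-sided exact permutation p = 0.00083 over 14400 within-group pairings, n = 10), with an adjusted p of 0.0058 by the Benjamini-Hochberg method over the 7 sums examined, of which the split into central and distal copies was made with the values known. Leaving out any 1 mouse, the slope lay between -0.41 and -0.35 with exact permutation p-values of at most 0.0063. Over all 14 protein-coding copies from Mup7 to Mup18 it was -0.20 (exact permutation p = 0.0033), and -0.15 without NCACS mouse 15 (exact permutation p = 0.017).

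For Mup3, Mup20 and Mup21 together the slope was -0.06 (exact permutation p = 0.19). The sum of all 10 genes had -0.12 (exact permutation p = 0.046, adjusted p = 0.064), and this value passed 0.05 in only 2 of 10 leave-one-out calculations, with p = 0.24 without NCACS mouse 15. Among single copies, Mup1 had a slope of -0.31 with an exact permutation p of 0.00014, the smallest that these pairings can give, reached by 5 of 14143 tested genes, yet no gene passed 0.05 after adjustment over all genes (adjusted p = 0.36 for Mup1). Unadjusted, the permutation p of 6 of the 7 central copies was under 0.05, the exception being Mup2 with 0.17, where 3.25% of all tested genes had such a p with a higher level at deeper loss. These copies are near-identical in sequence and are not taken as independent of each other. Albumin took its smallest shares of the counts, 5.09 and 4.49%, in the same NCACS mice 13 and 15 that had the highest central sums, against 8.05 to 8.51% in the other NCACS mice, and its part in the slope was not tested. NCACS mice 11 and 14, which had lost least weight, were also the NCACS mice lowest in Mup11 and Mup15 (below). That split and weight change cannot be told apart in this group.

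**Figure D4:**
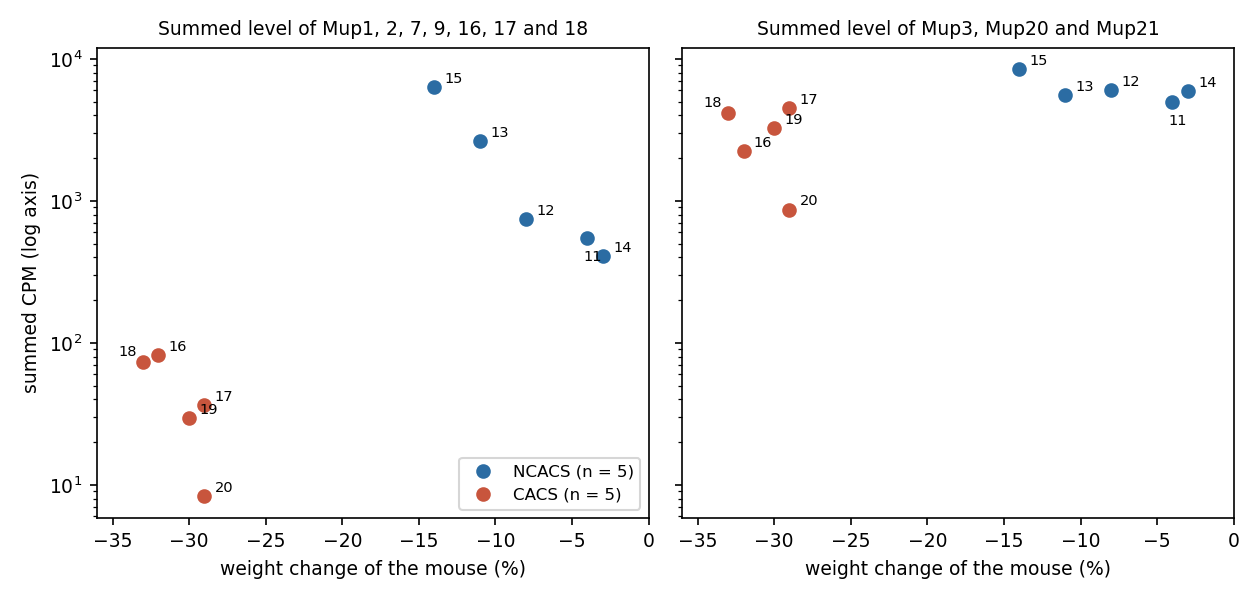
Summed CPM on a log axis against the weight change of each mouse in percent, for the 7 central copies (left) and for Mup3, Mup20 and Mup21 (right), with NCACS mice in blue, CACS mice in red and mouse numbers beside the points. Within each colour the left panel slopes down towards smaller losses (-0.38 log2 per percentage point), and between colours it drops from 411 CPM or more to 81.9 CPM or less.

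Beyond the list, 14 of the other 38 Mup rows passed the filter on low counts. Each of the 14 had a negative estimate, as had 7161 of all 14143 tested genes. Their median was -3.19 on the log2 scale where that of all tested genes was -0.01. Of the 14, 12 passed the test as lower, where 1.92% of all tested genes were lower at the threshold. Copies among them such as Mup10, Mup12 and Mup14 are near-identical to listed copies, so they add little independent evidence. Mup14 had 61.4, 113, 318, 70.6 and 842 CPM in NCACS mice 11 to 15 and between 5.33 and 28.7 CPM in CACS livers, a log2 fold change of -3.94. Mup12 had a log2 fold change of -4.41, Mup8 of -3.17 and Mup13 of -2.46. Among the pseudogenes with at least 100 counts in a liver, Mup-ps13 was the highest, with group means of 8.08 CPM (NCACS) and 0.917 CPM (CACS), and Mup-ps4, Mup-ps10, Mup-ps12 and Mup-ps16 had log2 fold changes from -5.84 to -3.21. Each of these 4 had 0 counts in a CACS liver. Mup-ps12, at -5.84, had 12 to 111 counts in NCACS livers and at most 2 in CACS livers. It passed the filter on low counts through the NCACS group, so the filter partly fixed its sign. The same holds for other scarce rows among the 14.

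Mup11 split the livers of each group. Its level was 149, 620 and 1350 CPM in NCACS mice 12, 13 and 15 but 3.35 and 3.79 CPM in NCACS mice 11 and 14. Of the CACS livers, mouse 16 had 56.8 CPM and mouse 19 had 15.3 CPM, and mice 17, 18 and 20 had 0.734, 1.47 and 0.687 CPM. The range in NCACS livers was thus 403-fold, against 1.48-fold for Mup3 in the same livers, and the log2 fold change of Mup11 (-4.82 ± 1.74, SE) did not pass the test. Mup15 was split in the same way, with 492, 3226 and 6813 counts in NCACS mice 12, 13 and 15, 2 and 0 counts in NCACS mice 11 and 14, 11 counts in CACS mouse 16 and none in CACS mice 17 to 20. Mup15 did not pass the filter. Mup7 and Mup20 were also lowest of the NCACS livers in mice 11 and 14. The labels give no litter, genotype at this array or batch that would separate these mice. Weight change does separate the NCACS mice, with -4 and -3% in mice 11 and 14 and -8, -11 and -14% in mice 12, 13 and 15. The split and weight change cannot be told apart there. In CACS mice weight change did not separate them, with -32 and -30% in mice 16 and 19 and -29, -33 and -29% in mice 17, 18 and 20.

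**Figure D5:**
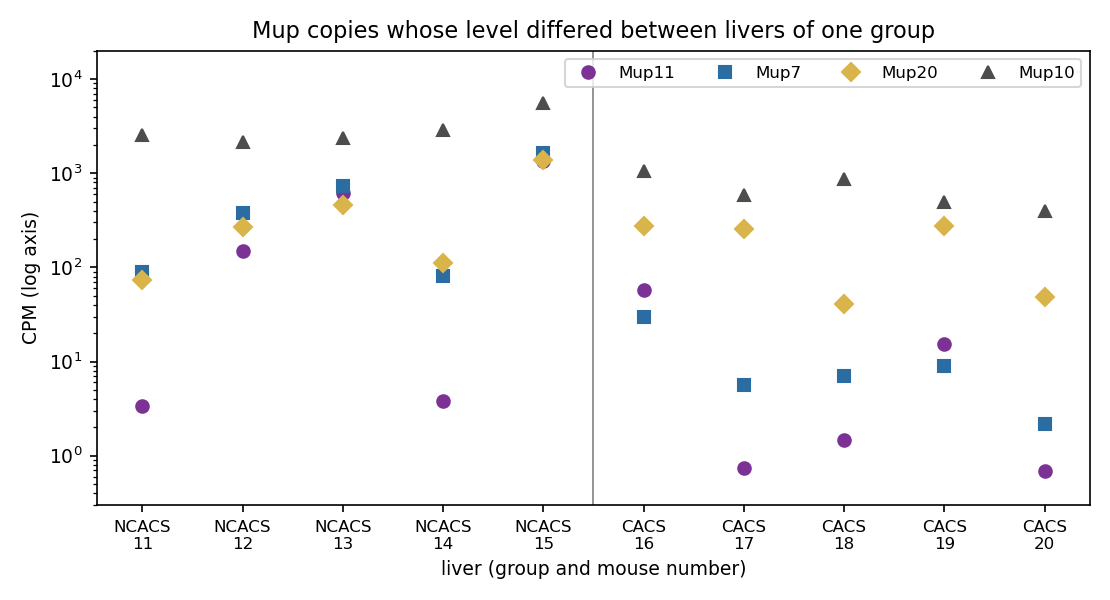
CPM on a log axis of Mup11, Mup7, Mup20 and Mup10 in each liver, NCACS to the left of the line and CACS to the right. Mup11 spans 3.35 to 1350 CPM among NCACS livers and 0.687 to 56.8 CPM among CACS livers, while Mup10 stays between 2167 and 5633 CPM and between 393 and 1058 CPM.

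The promoters of the copies hold the same landmarks at different spacing. RefSeq promoters (GRCm38.p6) were at hand for 14 Mup genes, 7 of the listed ones among them (not Mup1, Mup16 or Mup20). The stretches below run from 10 bases before the last ATCAAT, the core of the binding motif of Onecut factors, to 1 base after TATATAA, the box that positions transcription starts, both in capitals. They are shown for the copy with the largest difference, Mup18 (chr4:61674115-61674248, minus strand), for Mup17 (chr4:61595850-61595990), for Mup10 (chr4:60582178-60582319), and for the 2 distal copies Mup3 (chr4:62087321-62087427) and Mup21 (chr4:62150842-62150945).
Mup18: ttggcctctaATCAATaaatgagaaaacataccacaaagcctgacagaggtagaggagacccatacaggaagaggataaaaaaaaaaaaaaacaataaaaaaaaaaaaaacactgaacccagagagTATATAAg
Mup17: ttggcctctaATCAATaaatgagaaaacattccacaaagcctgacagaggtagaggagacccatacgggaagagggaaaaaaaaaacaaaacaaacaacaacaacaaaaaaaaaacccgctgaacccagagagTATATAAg
Mup10: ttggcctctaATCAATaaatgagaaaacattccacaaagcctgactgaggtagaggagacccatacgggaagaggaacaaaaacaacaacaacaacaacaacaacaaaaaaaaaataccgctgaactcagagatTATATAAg
Mup3: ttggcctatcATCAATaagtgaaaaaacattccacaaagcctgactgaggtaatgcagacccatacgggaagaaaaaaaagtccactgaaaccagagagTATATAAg
Mup21: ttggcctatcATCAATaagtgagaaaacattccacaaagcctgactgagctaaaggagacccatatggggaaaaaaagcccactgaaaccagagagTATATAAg

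The motifs stand 110 bases apart in Mup18, 117 in Mup17 and 118 in Mup10, and 83 and 80 apart in Mup3 and Mup21, which lack most of the A-rich run before the TATA box. Mup10, with its smaller difference, has the long form like Mup17 and Mup18. On either strand of the 250 bases before the annotated start, ATCAAT occurred in 14 of 14 Mup promoters and in 6.72% of all 32851 promoters. TATATAA occurred in 11 of 14, with Mup7, Mup11 and Mup14 lacking it in that window, and in 3.04% of all promoters. TTCNNNGAA, the common form of a STAT site, occurred in 0 of 14 and in 7.02% of all promoters. None of the capital stretches overlaps another, and a match or its absence says nothing of binding.

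Genes that act on Mup transcription were listed separately. In the growth hormone and STAT5 list 3 of 17 tested genes rose and 1 fell, where 1.89% of all tested genes were higher, 1.92% lower and 3.8% either at the threshold, and the list's median log2 fold change was 0.08. Socs2, a feedback inhibitor induced by growth hormone, rose from 8.99 ± 3.64 to 62.2 ± 17.6 CPM (SD, n = 5; log2 fold change 2.79 ± 0.29, SE, adjusted p = 0.0020 by edgeR), and passed in all 10 leave-one-out fits. Cux2, a repressor that is higher in female liver, rose in the mean from 0.466 to 20.5 CPM (log2 fold change 5.44, adjusted p = 0.030), passing in 3 of 10 such fits. Its CACS values were uneven, at 30.6, 0.551, 17.3, 0.817 and 53.4 CPM in mice 16 to 20. They overlapped the NCACS range of 0.291 to 0.653 CPM, and Cux2 did not pass with limma-voom (adjusted p = 0.32). Igf1, the main secreted product of growth hormone action, rose from 492 to 746 CPM (log2 fold change 0.60, adjusted p = 0.044, 1 of 10 fits). Ghr, the growth hormone receptor, fell from 582 to 377 CPM (log2 fold change -0.63, adjusted p = 0.039, 2 of 10 fits). Stat5b, the transducer of the signal, was at 67.7 ± 24.2 and 59.5 ± 9.39 CPM (SD, n = 5; log2 fold change -0.18, adjusted p = 0.64).

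The 21 transcription factor genes linked to Mup or hepatocyte expression had a median log2 fold change of 0.08. Of them 1 rose and none fell, where 1.89% of all tested genes were higher and 1.92% lower. The gene that rose was Hnf4a, a hepatocyte master regulator, from 632 ± 42.5 to 891 ± 116 CPM (SD, n = 5; log2 fold change 0.50, adjusted p = 0.043 by edgeR), which passed in 1 of 10 leave-one-out fits. Cebpa (log2 fold change -0.17) and Zhx2 (0.26), a regulator of hepatic genes including Mup genes, had adjusted p-values of 0.63 and 0.32.

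Male-biased liver genes other than Mup genes mostly had smaller differences. Cyp2u1, 1 of 23 tested genes, fell, from 15.7 to 6.89 CPM (log2 fold change -1.18, adjusted p = 0.040 by edgeR, 2 of 10 leave-one-out fits), where 1.92% of all tested genes were lower at the threshold. In all, 20 of the 23 had a negative estimate, with a median of -0.62. Of all 14143 tested genes 7161 had one, with a median of -0.01. Elovl3, a fatty acid elongase of male liver, was estimated at -2.67 on the log2 scale (adjusted p = 0.058), and the cytochrome gene Cyp4a12b and the complement gene C9 had -1.38 (0.27) and -1.002 (0.060). Among 23 female-biased genes, 4 rose and 1 fell, where 1.89% of all tested genes were higher and 1.92% lower. Cux2, already counted in the growth hormone list, Fmo2 (log2 fold change 3.11, adjusted p = 0.022) and Cyp39a1 (1.48, 0.044) were among those that rose, and Hao2 (-4.03, 0.032) fell.

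Other secreted proteins were listed for comparison. None of 12 tested lipocalin genes outside the family passed in edgeR's test, with 3 at an unadjusted p under 0.05 and 2 called by DESeq2, which called 10.2% of all genes it tested. The largest estimates were those of Lcn2 (log2 fold change -2.68, adjusted p = 0.28), Orm2 (-1.92, 0.28), Ptgds (-1.17, 0.13) and Obp2a (0.88, 0.57). Of 32 plasma protein genes of the liver, 1 rose, Fetub (log2 fold change 0.75, adjusted p = 0.033), and the median was 0.01. Of all tested genes 1.89% were higher at the threshold. Ahsg had 0.54, Hpx -0.47 and Hp -0.45, with adjusted p-values of 0.089, 0.61 and 0.66. Albumin, the most abundant of them, took 4.49 to 8.51% of the counts in NCACS livers and 8.76 to 10.5% in CACS livers.

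The array's neighbours were counted in the same way, again with 1.89% of all tested genes higher and 1.92% lower at the threshold. Of 35 tested genes within 2000000 bases on either side, 2 rose (Rgs3 and, named after its value was seen, Dnajc25) and none fell, and the median log2 fold change was -0.01. The largest estimates were those of the acute-phase gene Orm2 (-1.92, adjusted p = 0.28), Rgs3 (1.07, 0.041), Whrn (0.96, 0.056) and Orm1 (-0.85, 0.32). Inside the array, the non-Mup rows Gm13775 and Gm12909 had log2 fold changes of -3.16 (adjusted p = 0.11) and -0.46 (adjusted p = 0.31). Libraries marked strand, but the strand setting of the counting is not given in the sources used here, so reads of overlapping and antisense rows are uncertain.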

How the data were processed

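RNA from 5 NCACS and 5 CACS livers was sequenced as stranded poly(A) libraries. Per the labels, the authors aligned reads to GRCm38 with STAR 2.4.1d, counted them per gene with HTSeq 0.6.1 and deposited raw counts without normalization. The annotation release, the strand setting and the handling of reads with several matches are not given in the sources used here. All 10 columns matched a sample title and 0 were left unused. Symbols came from GENCODE M21, which lacked 1081 of the 43629 identifiers. Depth was 31459179 to 40746178 counts per liver.

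Counts were tested with edgeR 4.0.16 (quasi-likelihood, filterByExpr, TMM factors, no covariate) over 14143 genes, with Benjamini-Hochberg adjustment and a threshold of 0.05. All 10 listed genes passed that filter. The code was tested on simulated data. Summed counts were divided by the effective library size and taken as log2(CPM + 1). The slope on weight change used group-centred values and all within-group pairings, as a two-sided exact permutation test (SciPy 1.17.1). Coding sequences and 100-base windows came from the GENCODE M21 transcripts, with distances from edlib 1.3.9.post1, and promoters from RefSeq.

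Members, gene lists and tests were chosen with earlier results of these data known. The text names the 10 listed genes, other Mup rows with at least 100 counts in a liver, genes of the growth hormone and transcription factor lists past the threshold plus fixed ones (Ghr, Stat5b, Hnf4a, Cebpa, Zhx2), the 4 largest absolute log2 fold changes of every other list, and the 5 genes most like the Mup sum within groups. Some items that this rule or the design would name are not reported here. For the marker lists only summed levels, counts by sign of the estimate and genes past the threshold are given. Alternatives were DESeq2 1.42.0, limma-voom (limma 3.58.1), RLE factors, raw totals, library sizes without Mup counts, no filter, at least 10 counts in every liver, other sums and leaving out each mouse. P-values judge a difference or a slope against the spread between mice.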

Additional observations from a re-analysis of the deposited data

Results flagged for a closer look

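In 3 of 52 groups of 5 livers examined, 1 liver stood apart from the other 4 by a gap larger than the 95% limit of Dixon's test for 5 values (0.71 of the group's range of log2 CPM), where chance gives about 1 in 20. Mup21 was low in NCACS mouse 12, at 241 CPM, with a gap of 0.804 of the NCACS range. Mup10 was high in NCACS mouse 15, at 5633 CPM, with a gap of 0.710. Stat5b was high in the same NCACS mouse 15, at 110 CPM against 52.7 to 64.0 CPM in the other NCACS livers, with a gap of 0.736.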

How the results depend on the processing

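No paired analysis was possible because no mouse number occurs in both groups. No result changed direction under any alternative. The 10 log2 fold changes moved by less than the spread between livers in every alternative, except that Mup2 and Mup18 were removed by the filter of at least 10 counts in every liver. Their median ranged from -4.86 to -3.70 when each mouse was left out, and the number passing the threshold from 5 to 7. The difference of the summed level, -1.56, ranged from -1.76 to -1.17 when each mouse was left out and was -2.80 without Mup3. Its slope on weight change, -0.12, ranged from -0.14 to -0.088 and did not pass with raw library totals (-0.11, exact permutation p = 0.063). Of alternatives chosen after the data were seen, adding Mup10 to the 7 central copies moved their difference from -5.07 to -2.72, and summing all protein-coding copies from Mup7 to Mup18 moved it to -2.81, since both add copies with smaller differences.

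Counts of called genes moved more. DESeq2 called 1386 genes where edgeR called 538, and edgeR called 178 (without NCACS mouse 11) to 519 genes when each mouse was left out. DESeq2 called 7 male-biased genes, 4 transcription factor genes, 2 other lipocalin genes, 2 plasma protein genes and 4 neighbouring genes. Male-biased calls were 2 with limma-voom, 0 with raw library totals and 2 without a filter. Female-biased calls were 2 with limma-voom and 2 with at least 10 counts in every liver, and transcription factor calls were 0 without a filter. Leaving out each mouse gave 1 to 3 calls in the growth hormone list, 0 to 1 among transcription factors, 0 to 4 among male-biased and 0 to 4 among female-biased genes, 0 to 1 among plasma proteins and 0 to 2 among neighbours. The cause was not tested. With 3 counts in the lowest liver, the levels of Mup2 and Mup18 in CACS livers are imprecise.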
